A study of Mus musculus with 8 samples.

Results

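Tumour necrosis factor (TNF) signalling and its A20 feedback were followed at the transcript level in mouse bone marrow-derived macrophages, through 10 genes of the 22165 in the deposited count table. The genes were chosen by name, by matching Ensembl identifiers to mouse symbols, and are the ligand gene Tnf, the receptor genes Tnfrsf1a and Tnfrsf1b, the adaptor genes Traf2 and Traf1, the ubiquitin ligase genes Birc2 and Birc3, the A20 gene Tnfaip3 and the genes of the A20-binding proteins, Tnip1 and Tnip2. All 10 passed the filter on low counts. TNF is an inflammatory cytokine that macrophages make and also sense. Its receptors recruit TRAF adaptors and the cellular inhibitors of apoptosis cIAP1 and cIAP2, which build ubiquitin chains that switch on the kinases leading to NF-κB. A20 edits and binds these chains and, together with the ABIN proteins encoded by the Tnip genes, restrains the signal. In many cell types NF-κB itself switches on Tnfaip3, which makes A20 a feedback inhibitor.

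The cells came from C57BL/6 mice and were grown from bone marrow for 7 days with M-CSF. Cells lacking Nrf2 (Nrf2-/-, from mice of a commercial breeder), the transcription factor of the antioxidant response, were cultured for 12 h with dimethyl itaconate (DI) at 250 µM, an ester of itaconate that enters cells and reacts as an electrophile, or were left as controls, and wild-type (WT) cells were treated in the same 2 ways. The labels name no TNF, bacterial ligand or other stimulus in any group, and do not say whether controls received a vehicle. There were 2 libraries per group in 4 groups, primed with oligo-dT so that reads fall towards the 3′ ends of transcripts. Since separate mice or cultures are not stated for the 2 libraries of a group, the p-values cover only library-to-library spread, which may be technical.

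The libraries held 5554288 to 15680671 counts. Levels are CPM (counts scaled to a common library size) on TMM-scaled library sizes, compared within a gene only, and given as mean ± SD (n = 2). Changes are log2 fold changes ± standard error from edgeR's quasi-likelihood test, and adjusted p-values are Benjamini-Hochberg values over 11079 genes, called under 0.05. The targeted gene Nfe2l2 had 634 and 869 counts in knockout DI libraries, 230 and 488 in knockout untreated libraries, 1901 and 4469 in WT DI libraries, and 2636 and 7022 in WT untreated libraries. It was lower in knockout cells under DI and untreated (-2.20 ± 0.33 and -2.87 ± 0.34, edgeR adjusted p = 0.000784 and 0.0019), and the labels do not say which part of the gene is deleted. Nqo1, a textbook NRF2 target, rose by 5.34 ± 0.34 (log2) with DI in WT cells (edgeR adjusted p = 5.21e-06), and had 12 and 4 counts in knockout DI libraries and 0 in both knockout untreated libraries, where its rise was also called (edgeR adjusted p = 0.0255). Gclm, another NRF2 target, rose with DI by 1.304 ± 0.21 in knockout cells (edgeR adjusted p = 0.00576) and by 4.998 ± 0.24 in WT cells (edgeR adjusted p = 6.94e-07). All 8 macrophage markers examined were counted in every group, with Lyz2 leading. In bulk RNA, fewer cells of a type and less RNA per cell cannot be told apart.

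In WT cells DI raised Tnfrsf1b, Tnfaip3 and Traf1 and lowered Birc2, so that 4 of 10 genes were called, against 15.2% of all genes tested (3 higher against 6.51%, and 1 lower against 8.68%). In knockout cells DI raised Traf1 alone, 1 of 10, against 8.48% of all genes (4.49% higher and 4% lower). The test of the difference between the responses called Tnfrsf1b and Tnfaip3, both lower in knockout cells, 2 of 10, against 7.55% of all genes (4.96% higher and 2.59% lower). The ligand gene Tnf did not pass in any comparison. The WT DI libraries stood apart in composition: their 10 most abundant genes held 13.3% and 13.2% of counts, against 7.68% to 9.32% in the other 6 libraries, and their TMM factors were 0.945 and 0.943, against 0.986 to 1.049. The part of this in the changes seen in that pair was not tested beyond the other scalings tried. Of the 4 genes called in WT cells, only Tnfrsf1b kept its call without each library in turn: without WT untreated replicate 2 or WT DI replicate 1 it was the 1 gene called, and without WT untreated replicate 1 or WT DI replicate 2 it was called with Tnfaip3. The median log2 change of the 10 genes was 0.12 in knockout and 0.13 in WT cells, beside 0.00 and -0.02 for all genes tested, and 0.33 in knockout against WT under DI, beside 0.02.

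**Figure D1:**
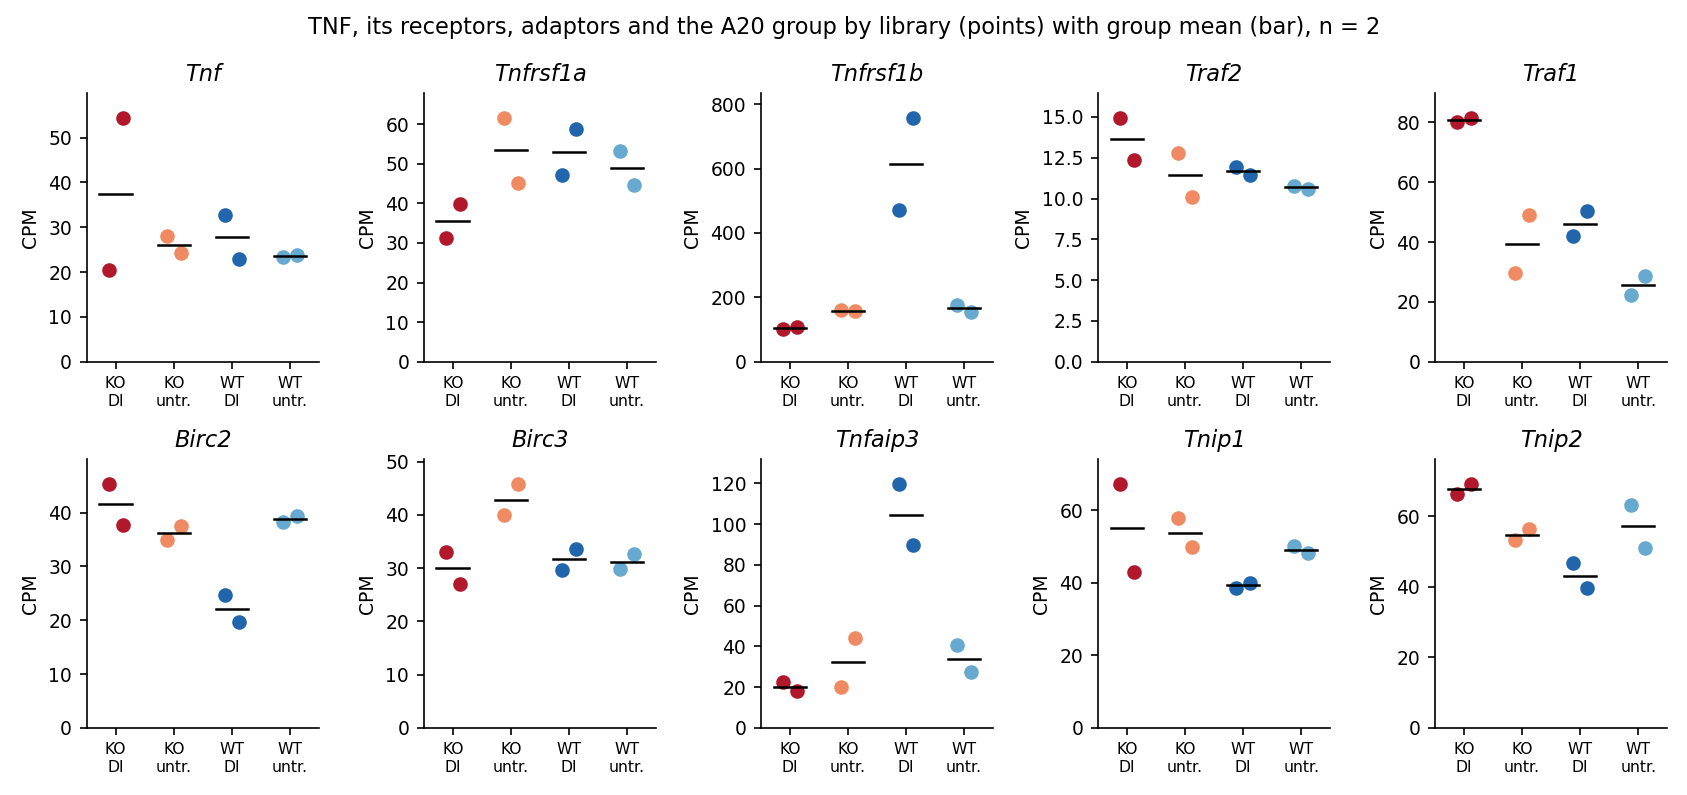
Levels of the 10 genes in CPM (vertical axes, each from 0) in every library, with a bar at the mean of the 2 libraries; groups run from knockout (KO) DI and KO untreated to WT DI and WT untreated. Tnfrsf1b and Tnfaip3 are highest in the 2 WT DI libraries (469.9 and 757.5 CPM, and 119.7 and 89.6 CPM), whereas Birc2 is lowest there.

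The ligand came first. Tnf (ENSMUSG00000024401, minus strand of chromosome 17, 35199381 to 35202007 of mm10) had 20.4 and 54.4 CPM in knockout DI libraries, 24.3 and 28.0 in knockout untreated libraries, 22.9 and 32.8 in WT DI libraries, and 23.4 and 23.7 in WT untreated libraries. The other 7 of the 8 libraries lay within 20.4 to 32.8 CPM, below knockout DI replicate 2. Tnf differed with DI by 0.52 ± 0.37 in knockout cells (edgeR adjusted p = 0.397) and by 0.23 ± 0.37 in WT cells (edgeR adjusted p = 0.701). Knockout DI cells differed from WT DI cells by 0.43 ± 0.37 (edgeR adjusted p = 0.424), and the sign of that difference hung on 1 library: it was -0.44 without knockout DI replicate 2 and 0.97 without replicate 1, where it was called (edgeR adjusted p = 0.0443). The change with DI in knockout cells likewise became -0.35 without knockout DI replicate 2. With standard errors of this size, small changes of Tnf were not detectable.

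Of the 2 receptor genes, Tnfrsf1b had the largest differences. It encodes TNFR2, which responds mainly to membrane-bound TNF and lacks a death domain, and lies on the minus strand of chromosome 4 (ENSMUSG00000028599, 145213463 to 145246870). It had 101.6 and 109.3 CPM in knockout DI libraries, 156.5 and 159.9 in knockout untreated libraries, 469.9 and 757.5 in WT DI libraries, and 154.4 and 177.7 in WT untreated libraries. Only the WT DI libraries were high, and they did not overlap with any other group.

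Tnfrsf1b rose 3.70-fold with DI in WT cells, to 614 ± 203 CPM against 166 ± 16.5 CPM untreated, a log2 change of 1.89 ± 0.25 (edgeR adjusted p = 0.000473). In knockout cells it averaged 105.5 ± 5.46 CPM with DI and 158 ± 2.41 CPM untreated, a difference of -0.58 ± 0.25 that did not pass (edgeR adjusted p = 0.161). The response in knockout cells was lower than that in WT cells by a log2 difference of -2.47 ± 0.36 (edgeR adjusted p = 0.00261). Under DI, knockout cells held 5.82-fold less Tnfrsf1b transcript than WT cells (-2.54 ± 0.26, edgeR adjusted p = 4.82e-05), while untreated cells of the 2 genotypes differed by -0.07 ± 0.25 (edgeR adjusted p = 0.962). These 3 calls held without each library in turn, with log2 values of 1.53 to 2.23, -2.81 to -2.10 and -2.87 to -2.17.

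Tnfrsf1a encodes TNFR1, the death-domain receptor that carries most responses to soluble TNF (ENSMUSG00000030341, plus strand of chromosome 6, 125349362 to 125362484). It had 31.3 and 39.8 CPM in knockout DI libraries, 45.2 and 61.6 in knockout untreated libraries, 47.3 and 58.8 in WT DI libraries, and 44.6 and 53.2 in WT untreated libraries. The knockout DI libraries were the lowest pair and did not overlap with the other groups, but no comparison of Tnfrsf1a passed. The change was -0.58 ± 0.25 in knockout cells (edgeR adjusted p = 0.160) and 0.12 ± 0.24 in WT cells (edgeR adjusted p = 0.774), and the difference between them was -0.70 ± 0.35 (edgeR adjusted p = 0.217).

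Of the adaptor genes, Traf1 was called and Traf2 was not. Traf1, a TRAF protein without the RING domain of its relatives, pairs with TRAF2 on TNFR2 and is a known NF-κB target (ENSMUSG00000026875, minus strand of chromosome 2, 34941750 to 34961772). It had 80.2 and 81.5 CPM in knockout DI libraries, 29.7 and 49.1 in knockout untreated libraries, 41.9 and 50.3 in WT DI libraries, and 22.5 and 28.7 in WT untreated libraries. DI libraries lay above untreated libraries of their genotype without overlap, and Traf1 was the 1 gene of the 10 called with DI in both genotypes. It rose 2.04-fold in knockout cells (1.03 ± 0.26, edgeR adjusted p = 0.0337) and 1.80-fold in WT cells (0.85 ± 0.26, edgeR adjusted p = 0.0481). The responses differed by 0.18 ± 0.37 (edgeR adjusted p = 0.801). Under DI knockout cells had 1.75-fold more Traf1 transcript than WT cells (0.81 ± 0.26, edgeR adjusted p = 0.0460).

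All 3 calls of Traf1 were near the threshold. The call in knockout cells was lost without any 1 of the 4 knockout libraries, with log2 changes of 0.72 and 1.44 without knockout untreated replicates 1 and 2 and of 1.04 and 1.02 without knockout DI replicates 1 and 2. The call in WT cells was lost without each WT or knockout DI library, with changes of 0.69 to 1.04 and edgeR adjusted p-values up to 0.210. Knockout against WT under DI lost its call without each WT or knockout DI library, at 0.66 to 0.93 with edgeR adjusted p-values up to 0.207.

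Traf2 encodes the adaptor that brings the cIAPs to TNF receptors (ENSMUSG00000026942, minus strand of chromosome 2, 25517982 to 25546940). It had 12.4 and 14.9 CPM in knockout DI libraries, 10.1 and 12.8 in knockout untreated libraries, 11.5 and 11.9 in WT DI libraries, and 10.6 and 10.8 in WT untreated libraries. The levels were close in all groups: DI differed from untreated by 0.26 ± 0.25 in knockout cells (edgeR adjusted p = 0.539) and by 0.13 ± 0.25 in WT cells (edgeR adjusted p = 0.759). Traf2 overlaps the antisense pseudogene Gm13433, and Tnip1 overlaps the antisense pseudogene Gm12230. The sources used here do not give the strand setting of the counting, so reads of these partners may be mixed in.

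Birc2 and Birc3, the genes of cIAP1 and cIAP2, are neighbours on chromosome 9 (minus strand, 7818227 to 7837064 and 7848699 to 7873186 of mm10), with 11634 bases between them. Birc2 was called and Birc3 was not. Birc2 (ENSMUSG00000057367) had 37.8 and 45.4 CPM in knockout DI libraries, 35.0 and 37.5 in knockout untreated libraries, 19.7 and 24.7 in WT DI libraries, and 38.3 and 39.3 in WT untreated libraries. The WT DI libraries were the only low ones. Birc2 fell by 0.81 ± 0.23 (log2) with DI in WT cells (edgeR adjusted p = 0.0302), while it differed by 0.20 ± 0.22 in knockout cells (edgeR adjusted p = 0.614). The test of the difference between the responses did not pass (1.01 ± 0.32, edgeR adjusted p = 0.0700). Under DI knockout cells held 1.88-fold more Birc2 transcript than WT cells (0.91 ± 0.23, edgeR adjusted p = 0.0146).

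The fall of Birc2 in WT cells lost its call without each WT library or each knockout untreated library, with changes of -0.94 to -0.63 and edgeR adjusted p-values up to 0.173, and in the fit of the WT libraries alone (-0.80, edgeR adjusted p = 0.0513). Its difference under DI lost the call without knockout DI replicate 1 (0.78, edgeR adjusted p = 0.0785) and WT DI replicate 2 (0.74, edgeR adjusted p = 0.0997). Birc3 (ENSMUSG00000032000) had 27.1 and 33.0 CPM in knockout DI libraries, 39.9 and 45.8 in knockout untreated libraries, 29.7 and 33.5 in WT DI libraries, and 29.9 and 32.5 in WT untreated libraries. Its highest levels were in untreated knockout cells, and no comparison passed. The change of Birc3 with DI was -0.52 ± 0.22 in knockout cells (edgeR adjusted p = 0.165) and 0.02 ± 0.22 in WT cells (edgeR adjusted p = 0.962).

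The A20 gene Tnfaip3 (ENSMUSG00000019850, minus strand of chromosome 10, 19000910 to 19015657) was called higher with DI in WT cells, and the A20-binding genes Tnip1 and Tnip2 were not called. The 250 bases before the RefSeq start site (GRCm38.p6) of Tnfaip3 and of Tnip1 are shown because they were the only start-site windows of the 10 genes to match the 10-base NF-κB consensus on either strand. Matches are in capitals, and those of Tnip1 are 3 overlapping ones on both strands. The stretches are chr10:19015411-19015660 and chr11:54962941-54963190, both on the minus strand and written 5′ to 3′ towards the start.
Tnfaip3: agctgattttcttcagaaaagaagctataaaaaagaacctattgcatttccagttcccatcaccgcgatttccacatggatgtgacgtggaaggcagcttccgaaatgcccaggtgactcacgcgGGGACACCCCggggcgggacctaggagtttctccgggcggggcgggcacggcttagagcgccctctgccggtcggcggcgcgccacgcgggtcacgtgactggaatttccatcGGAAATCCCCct
Tnip1: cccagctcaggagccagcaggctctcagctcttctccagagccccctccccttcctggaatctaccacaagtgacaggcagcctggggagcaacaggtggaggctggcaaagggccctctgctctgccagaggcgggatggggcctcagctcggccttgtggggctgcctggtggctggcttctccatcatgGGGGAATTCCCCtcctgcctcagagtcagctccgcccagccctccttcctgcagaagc
In the full windows of 300 bases (250 before to 50 after the start), the NF-κB consensus was in 2 of the 12 windows of the 10 genes, and in 8.46% of 32851 mouse windows. The antioxidant response element TGACNNNGC, the NRF2 site, was in 2 of the 12 windows, those of Traf2 and Tnip2, and in 12.4% of mouse windows. A second, more downstream start site of Tnfaip3 had no match to either. A match is a description of letters and not evidence of binding.

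Tnfaip3 had 17.8 and 22.4 CPM in knockout DI libraries, 20.1 and 44.1 in knockout untreated libraries, 89.6 and 119.7 in WT DI libraries, and 27.2 and 40.7 in WT untreated libraries. As for Tnfrsf1b, the WT DI libraries lay above the other 6. Knockout untreated libraries overlapped both knockout DI and WT untreated libraries, while knockout DI libraries lay below WT untreated libraries. Tnfaip3 rose 3.08-fold with DI in WT cells, to 105 ± 21.3 CPM against 34.0 ± 9.53 CPM untreated, a log2 change of 1.62 ± 0.34 (edgeR adjusted p = 0.00761). In knockout cells it averaged 20.1 ± 3.24 CPM with DI and 32.1 ± 16.9 CPM untreated, and the difference of -0.69 ± 0.35 did not pass (edgeR adjusted p = 0.230). The response in knockout cells was lower by a log2 difference of -2.31 ± 0.48 (edgeR adjusted p = 0.0155). Under DI knockout cells held 5.195-fold less Tnfaip3 transcript than WT cells (-2.38 ± 0.35, edgeR adjusted p = 0.000743). Untreated cells differed by -0.07 ± 0.34 (edgeR adjusted p = 0.977).

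The difference of Tnfaip3 under DI kept its call without each library in turn, at -2.59 to -2.18. The other calls were lost in some fits without 1 library but kept their direction. The changes were 1.36 to 1.94 in WT cells, and -2.78 to -1.62 for the difference between the responses. The rise in WT cells was 1.36 without WT untreated replicate 2 (edgeR adjusted p = 0.0861) and 1.44 without WT DI replicate 1 (edgeR adjusted p = 0.0513). The difference between the responses was -1.62 without knockout untreated replicate 2 (edgeR adjusted p = 0.0825), -2.04 without WT untreated replicate 2 (edgeR adjusted p = 0.0723) and -2.12 without WT DI replicate 1 (edgeR adjusted p = 0.0541). The change in knockout cells became 0.00 without knockout untreated replicate 2, the library with 44.1 CPM.

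Tnip1 encodes ABIN1, a ubiquitin-binding partner of A20 (ENSMUSG00000020400, minus strand of chromosome 11, 54910785 to 54962917). It had 43.0 and 67.2 CPM in knockout DI libraries, 49.7 and 57.7 in knockout untreated libraries, 38.6 and 40.0 in WT DI libraries, and 48.3 and 49.98 in WT untreated libraries. The WT DI libraries were the lowest, but Tnip1 did not pass in any comparison, with changes of 0.04 ± 0.24 in knockout cells (edgeR adjusted p = 0.940) and -0.32 ± 0.24 in WT cells (edgeR adjusted p = 0.408). Tnip2, the gene of ABIN2 (ENSMUSG00000059866, minus strand of chromosome 5, 34496087 to 34513991), had 66.4 and 69.2 CPM in knockout DI libraries, 53.2 and 56.3 in knockout untreated libraries, 39.7 and 46.7 in WT DI libraries, and 51.1 and 63.4 in WT untreated libraries. Tnip2 was highest in knockout DI and lowest in WT DI libraries, with no overlap between these 2 groups. Knockout DI cells differed from WT DI cells by 0.65 ± 0.22, just outside the threshold (edgeR adjusted p = 0.0509). The difference was called with relative log expression scaling, total-count scaling, DESeq2 or the A-rich trend removed, at 0.66 to 0.86 with adjusted p-values of 0.0150 to 0.0486.

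**Figure D2:**
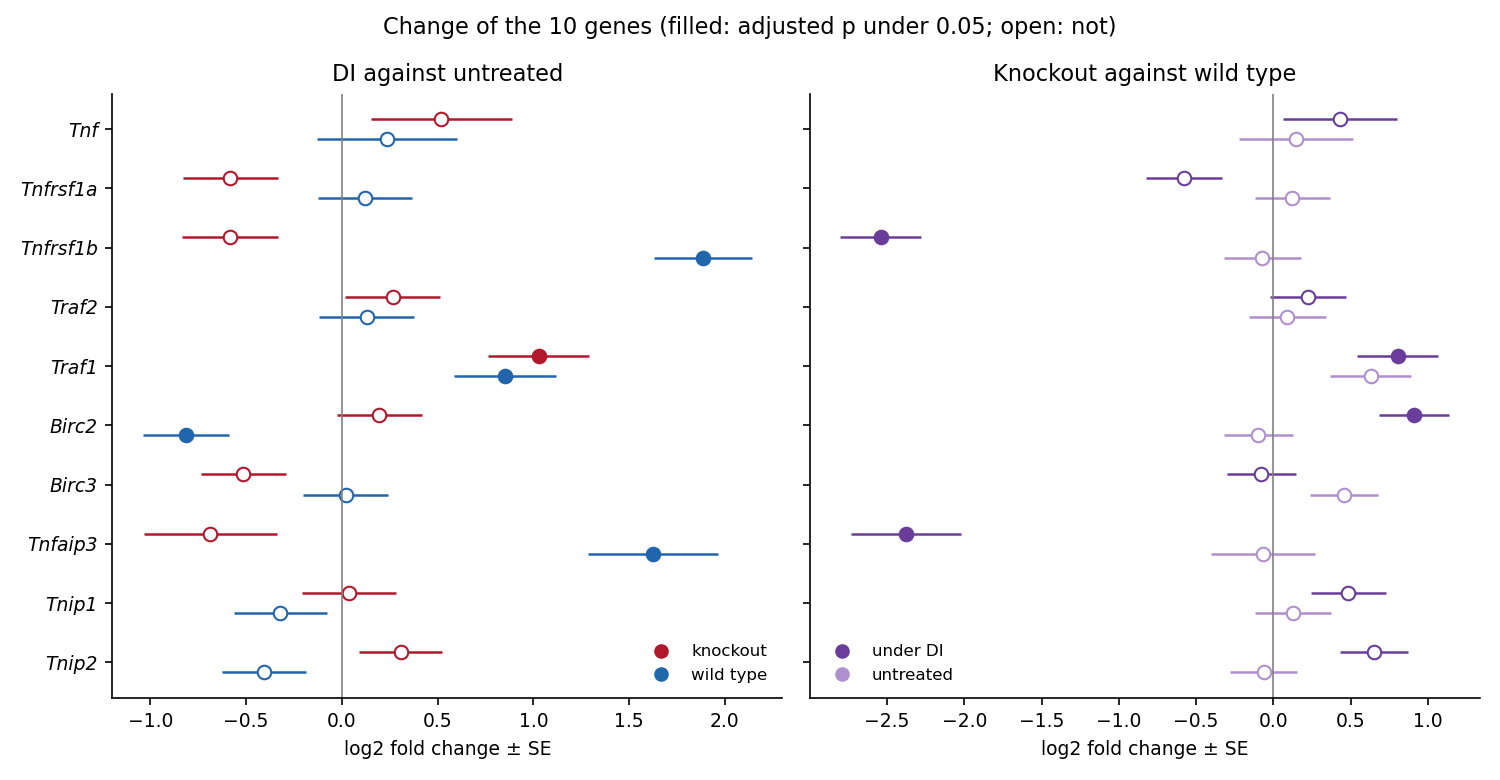
Log2 fold changes with standard errors of the 10 genes, with DI against untreated on the left (knockout above WT for each gene) and knockout against WT on the right (under DI above untreated); filled points have an edgeR adjusted p under 0.05. Tnfrsf1b and Tnfaip3 lie at 1.89 and 1.62 in WT cells with DI and at -2.54 and -2.38 in knockout against WT under DI.

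Between genotypes under DI 4 of 10 were called, against 21.2% of all genes tested (11.4% higher and 9.74% lower): Traf1 and Birc2 were higher and Tnfrsf1b and Tnfaip3 lower in knockout cells. Without WT DI replicate 2 the count was 2, Tnfrsf1b and Tnfaip3. In untreated cells edgeR called 0 of 10, against 0.605% of all genes (0.0812% higher and 0.524% lower), DESeq2 also called 0, and 1 of 10 had an unadjusted edgeR p under 0.05. That gene was Traf1, at 0.63 ± 0.26 (edgeR adjusted p = 0.421). The share of all genes at this unadjusted threshold is not given here, so that count has no background beside it. The comparisons of knockout with WT under DI and of DI with untreated in WT share the WT DI libraries, so they are not independent of each other.

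Other cell types were looked at through marker lists. Of the 5 tested stromal markers, Col1a1, Col1a2, Col3a1, Pdgfrb and Dcn, all 5 were lower in knockout DI than in WT DI cells. Their list, Lum at 0 included, summed to 44.1 to 44.4 CPM in knockout DI, 47.0 to 48.5 in knockout untreated, 107 to 118 in WT DI and 88.2 to 130 in WT untreated libraries. Col3a1 was also called with DI in knockout cells (-2.39, edgeR adjusted p = 0.00642) and in the difference between the responses (-2.01, edgeR adjusted p = 0.0327). Neutrophil markers summed to 245 to 302 CPM in knockout DI, 266 to 306 in knockout untreated, 250 to 319 in WT DI and 372 to 378 in WT untreated libraries, and 1 of 6 tested, S100a8, was lower in knockout DI than in WT DI cells. Lymphocyte, dendritic cell, mast cell and basophil, and erythroid lists summed to at most 12.6 CPM in any library, and Clec9a, with 115 counts in all, was higher in knockout DI than in WT DI cells. Of 8 macrophage markers, Adgre1 and Csf1r fell with DI in knockout cells, Fcgr1 and Itgam fell with DI in WT cells, and Csf1r and Cd68 were lower in knockout DI than in WT DI cells. The part of these markers in the results was not tested.

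Upstream and downstream genes of the TNF receptors were read from 4 lists. List counts from fits without 1 library have no share of all genes from the same fit beside them, so they describe stability only. Of 34 further genes of TNF receptor signalling, 33 were tested, and Rhbdf1 had 0 to 5 counts per library. With DI 1 of 33 was called in knockout cells (3.03%) and 4 in WT cells (12.1%), 2 higher and 2 lower, and under DI 6 differed between genotypes (18.2%), 4 higher and 2 lower in knockout cells. None of these shares was above that of all genes, and the list medians were -0.06, 0.08 and -0.15, beside 0.00, -0.02 and 0.02 for all genes. Tnip3, a further A20-binding gene (ABIN3), fell in WT cells. It had 108 and 124 CPM in knockout DI libraries, 161 and 157 in knockout untreated libraries, 41.0 and 37.5 in WT DI libraries, and 119 and 153 in WT untreated libraries. The change of Tnip3 was -1.79 ± 0.23 in WT cells (edgeR adjusted p = 0.00032), and knockout DI cells held 2.96-fold more than WT DI cells (1.56 ± 0.23, edgeR adjusted p = 0.000618). Both calls held without each library in turn. With DI in WT cells Tnip3 thus fell where Tnfaip3 rose. The test of the difference between the responses called 2 of 33, Traf3 and Tnip3 (6.06%, against 7.55% of all genes). Both lost this call without either knockout untreated library, WT untreated replicate 2 or WT DI replicate 1. Traf3 also lost it without knockout DI replicate 1, and Tnip3 without WT DI replicate 2. The differences were 1.53 to 3.03 for Traf3 and 1.15 to 1.51 for Tnip3 over the fits without 1 library.

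Tank, whose product binds TRAF proteins and dampens NF-κB, had 114 and 135 CPM in knockout DI libraries and 59.7 and 58.1 in WT DI libraries. It was 2.12-fold higher in knockout DI cells (1.08 ± 0.22, edgeR adjusted p = 0.00559), without overlap and in every fit without 1 library. Untreated levels of Tank were 106 ± 14.3 CPM in knockout and 93.5 ± 10.8 CPM in WT cells. Its change with DI did not pass in knockout (0.23 ± 0.22, edgeR adjusted p = 0.549) or WT cells (-0.67 ± 0.22, edgeR adjusted p = 0.0609). The difference between these responses did not pass either (0.89 ± 0.31, edgeR adjusted p = 0.0975). Traf3, which limits non-canonical NF-κB signalling, was the gene called with DI in knockout cells, with 102.7 and 36.5 CPM in DI and 11.9 and 17.3 CPM in untreated libraries. Its change of 2.24 ± 0.43 (edgeR adjusted p = 0.0112) lost the call without knockout DI replicate 1 (1.31, edgeR adjusted p = 0.0734) and without knockout untreated replicates 1 and 2 (2.02 and 2.55, edgeR adjusted p = 0.119 and 0.0815). In WT cells, Ikbkg and Rhbdf2 were called higher and Cflar lower beside Tnip3. The 4 calls became 1 without WT untreated replicate 1 or WT DI replicate 1, which was Tnip3, and 2 without WT untreated replicate 2 or WT DI replicate 2. The 6 calls under DI became 3 without knockout DI replicate 1 or WT DI replicate 1.

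The Tnf transcript is itself controlled by proteins that bind it or act on its translation, and 12 such genes were tested. Zfp36l1, which encodes a relative of the AU-rich element-binding decay factor tristetraprolin, had 1153 and 739 CPM in knockout DI libraries, 1677 and 1397 in knockout untreated libraries, 154 and 121 in WT DI libraries, and 1200 and 1268 in WT untreated libraries. The WT DI libraries alone were low. Zfp36l1 fell by 3.17 ± 0.28 (log2) in WT cells with DI (edgeR adjusted p = 2.09e-05), and the response in knockout cells was higher by 2.47 ± 0.36 (edgeR adjusted p = 0.00286). Knockout DI cells held 6.88-fold more Zfp36l1 transcript than WT DI cells (2.78 ± 0.27, edgeR adjusted p = 3.11e-05), and all 3 calls held without each library in turn.

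Zfp36, the tristetraprolin gene, ran the other way in the difference between the responses and between genotypes under DI. With DI, Zfp36 was not called in knockout cells (-0.76 ± 0.22, edgeR adjusted p = 0.0509) or in WT cells (0.51 ± 0.22, edgeR adjusted p = 0.133). It had 97.2 and 92.8 CPM in knockout DI libraries, 162 and 159 in knockout untreated libraries, 163 and 195 in WT DI libraries, and 139 and 113 in WT untreated libraries. The response in knockout cells was lower by -1.26 ± 0.31 (edgeR adjusted p = 0.0285), and Zfp36 was lower in knockout DI than in WT DI cells (-0.91 ± 0.22, edgeR adjusted p = 0.0121). The first call was lost in 6 of 8 fits without 1 library, all but those without WT untreated replicate 1 and WT DI replicate 1, and the second in 3, without either knockout DI library or WT DI replicate 2. Counts in this list were 0 of 12 with DI in knockout cells, 2 lower in WT cells (16.7%) and 1 higher and 1 lower in knockout against WT under DI (16.7%), against 8.48%, 15.2% and 21.2% of all genes. Beside the 0 called by edgeR, DESeq2 called 1, Zfp36, and 3 of 12 had an unadjusted edgeR p under 0.05. For the unadjusted count no share of all genes is given here. The count in WT cells, Zfp36l1 and Map3k8, became 1 without WT untreated replicate 2 or WT DI replicate 1. The test of the difference between the responses called Zfp36l1 and Zfp36 (16.7%, against 7.55% of all genes), and the count under DI became 1 without either knockout DI library. The list medians were 0.04 in knockout cells, 0.06 in WT cells and -0.06 between genotypes under DI.

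Of 24 NF-κB target genes known to respond to TNF, 4 were called with DI in knockout cells (16.7%), 12 in WT cells (50%) and 11 in knockout against WT under DI (45.8%), against 8.48%, 15.2% and 21.2% of all genes. They did not move one way: 3 rose and 1 fell in knockout cells, 7 rose and 5 fell in WT cells, and 7 were higher and 4 lower in knockout DI than in WT DI cells. The list medians were -0.12, -0.07 and 0.17. The responses differed for 4 of 24, Rel, Bcl3, Ptgs2 and Cebpb (16.7%, against 7.55% of all genes), but for 0 without WT DI replicate 1, knockout DI replicate 1, WT untreated replicate 2 or either knockout untreated library, and for 2 without WT untreated replicate 1 or knockout DI replicate 2. Ptgs2, the inducible cyclooxygenase gene, had 12.1 and 12.6 CPM in knockout DI libraries, 5.25 and 6.73 in knockout untreated libraries, 39.7 and 38.1 in WT DI libraries, and 7.43 and 5.63 in WT untreated libraries. Ptgs2 rose with DI by 1.02 ± 0.26 in knockout cells (edgeR adjusted p = 0.0331) and by 2.58 ± 0.25 in WT cells (edgeR adjusted p = 4.42e-05). The call in knockout cells was lost without any 1 of the knockout libraries, at 0.87 to 1.23 over the fits without 1 library. Ptgs2 was 3.16-fold lower in knockout DI than in WT DI cells (-1.66 ± 0.24, edgeR adjusted p = 0.000617).

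Cebpb, a transcription factor gene of inflammatory and stress responses, had 284 and 272 CPM in knockout DI libraries, 206.5 and 221 in knockout untreated libraries, 778 and 665.5 in WT DI libraries, and 277 and 242 in WT untreated libraries. The WT DI libraries were high, and Cebpb rose by 1.48 ± 0.21 in WT cells (edgeR adjusted p = 0.000775) and was lower in knockout DI than in WT DI cells (-1.38 ± 0.21, edgeR adjusted p = 0.000987). Rel, the c-Rel subunit gene, ran opposite, with 182 and 114 CPM in knockout DI libraries, 139.6 and 140.1 in knockout untreated libraries, 52.9 and 52.0 in WT DI libraries, and 109 and 128 in WT untreated libraries. It was 2.82-fold higher in knockout DI than in WT DI cells (1.496 ± 0.25, edgeR adjusted p = 0.00174). Nfkbie, the IκBε gene, had 18.0 and 20.1 CPM in knockout DI libraries and 8.80 and 6.34 in WT DI libraries, and the chemokine gene Ccl4 had 182 and 198 CPM in knockout DI libraries and 69.0 and 74.8 in WT DI libraries. Both were higher in knockout DI cells (1.35 ± 0.25 and 1.40 ± 0.22, edgeR adjusted p = 0.00302 and 0.00114). Untreated means were 19.9 CPM in knockout and 15.9 in WT cells for Nfkbie, and 146 and 118 for Ccl4. The difference between the responses did not pass for Nfkbie or Ccl4 (1.03 ± 0.34 and 1.09 ± 0.31, edgeR adjusted p = 0.0870 and 0.0512). These calls under DI and the rise of Cebpb held without each library in turn. The counts of this list fell in some fits without 1 library, in WT cells, in knockout cells and under DI. Calls among all genes also fell in some of these fits, so the lower counts cannot be read as a trait of the list.

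Other ligands and receptors of the TNF superfamily were tested for 15 of 18 genes, while Lta and Ltb, the lymphotoxin genes next to Tnf, and Tnfsf13 had 0 to 11 counts per library. Of the 15, 2 fell with DI in knockout cells (13.3%), 1 rose and 4 fell in WT cells (33.3%), and 4 were higher and 3 lower in knockout DI than in WT DI cells (46.7%), against 8.48%, 15.2% and 21.2% of all genes. Tnfsf10, the TRAIL gene, had 2.56 and 2.63 CPM in knockout DI libraries, 10.7 and 11.3 in knockout untreated libraries, 2.36 and 1.02 in WT DI libraries, and 8.21 and 6.47 in WT untreated libraries. It fell in both genotypes, with log2 changes of -2.08 ± 0.36 in knockout cells (edgeR adjusted p = 0.00783) and -2.20 ± 0.39 in WT cells (edgeR adjusted p = 0.00302), although the call in knockout cells was lost without knockout untreated replicate 2 (-2.03, edgeR adjusted p = 0.0586).

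Tnfsf8, the CD30 ligand gene, had 54 and 47 counts in knockout DI libraries, 133 and 145 in knockout untreated libraries, 4 and 2 in WT DI libraries, and 146 and 203 in WT untreated libraries. It fell in both genotypes and further in WT cells, the response in knockout cells being higher by 3.25 ± 0.60 (edgeR adjusted p = 0.00885), which held without each library in turn. Its fall in knockout cells (-1.88 ± 0.32, edgeR adjusted p = 0.00642) lost the call without knockout untreated replicate 1 (-1.58, edgeR adjusted p = 0.0736). Tnfrsf26, a further receptor gene of the family, had 8.97 and 9.93 CPM in knockout DI libraries, 8.75 and 10.1 in knockout untreated libraries, 25.8 and 27.1 in WT DI libraries, and 10.7 and 9.57 in WT untreated libraries. It rose by 1.39 ± 0.23 in WT cells (edgeR adjusted p = 0.00175) and was lower in knockout DI than in WT DI cells (-1.48 ± 0.23, edgeR adjusted p = 0.0011), with both calls held without each library in turn. Counts of this list fell in some fits without 1 library, in WT cells, in knockout cells and under DI, and calls among all genes also fell in some of them. The responses differed for 3 of 15, Tnfsf8, Tnfrsf26 and Fas (20%, against 7.55% of all genes), and for Tnfsf8 alone without either knockout untreated library, WT untreated replicate 2 or either WT DI library. Fas lost this call without any 1 library, at -2.56 to -2.03, and with the A-rich trend removed. Its counts were low, with 17 in all in knockout DI, 39 in knockout untreated, 66 in WT DI and 62 in WT untreated libraries. The list medians were -0.42 in knockout cells, -0.01 in WT cells and 0.06 under DI. In untreated cells edgeR and DESeq2 called 0 genes of the 4 lists between genotypes, with 0, 0, 5 and 1 genes at an unadjusted p under 0.05 in the order described. Without the share of all genes at that threshold, these unadjusted counts cannot be read as high or low.

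**Figure D3:**
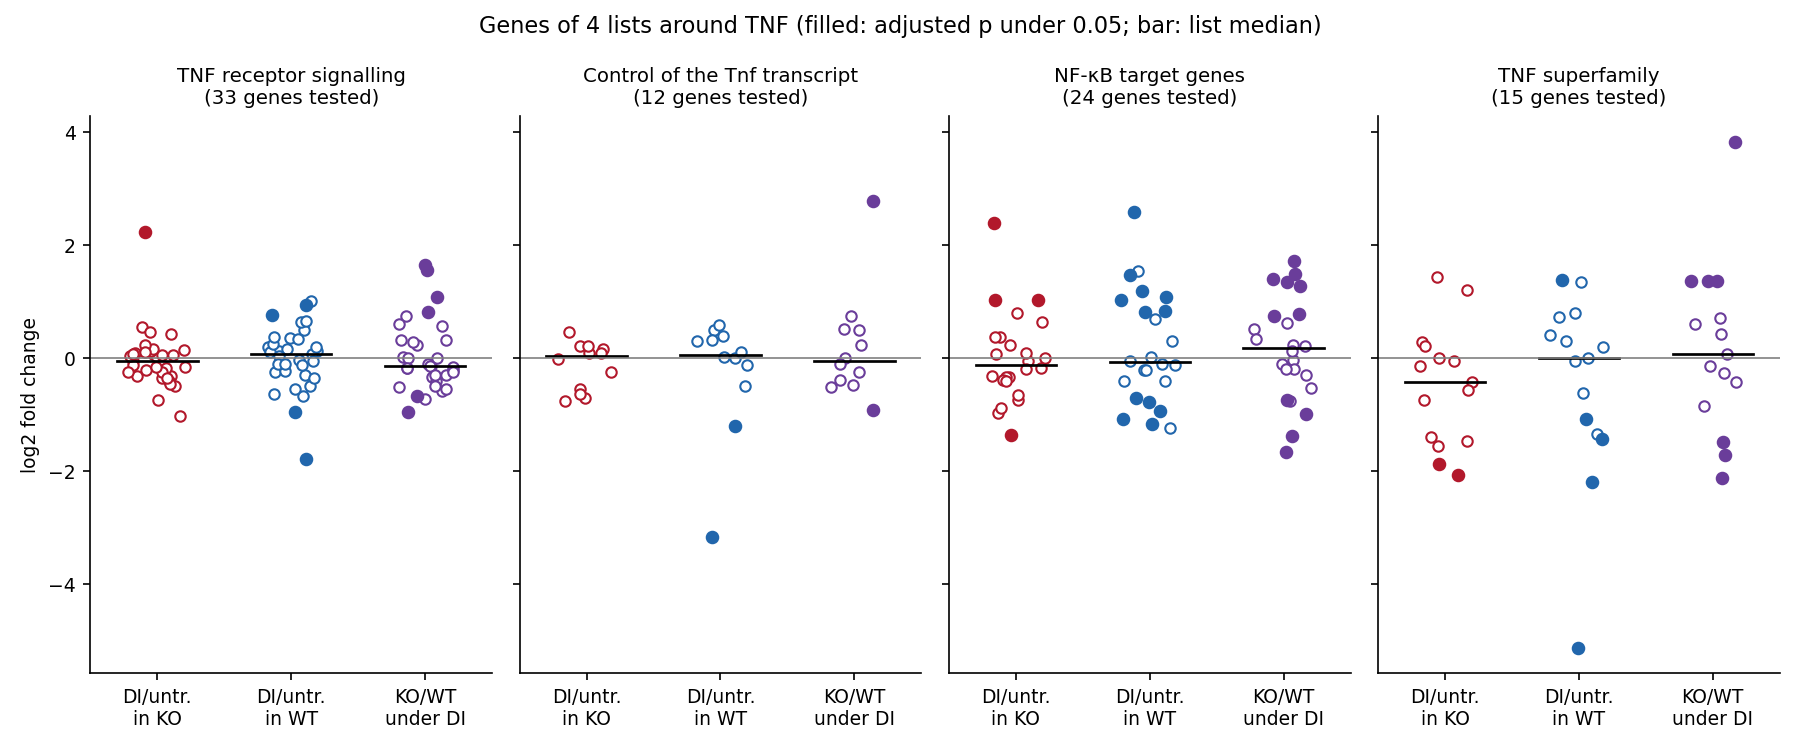
Log2 fold changes (vertical axis) of the tested genes of the 4 lists, with DI against untreated in KO, DI against untreated in WT, and KO against WT under DI; filled points have an edgeR adjusted p under 0.05 and bars are list medians. The medians lie between -0.42 and 0.17 while single genes spread to both sides, such as Zfp36l1 at -3.17 with DI in WT and 2.78 in KO against WT under DI.

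**Figure D4:**
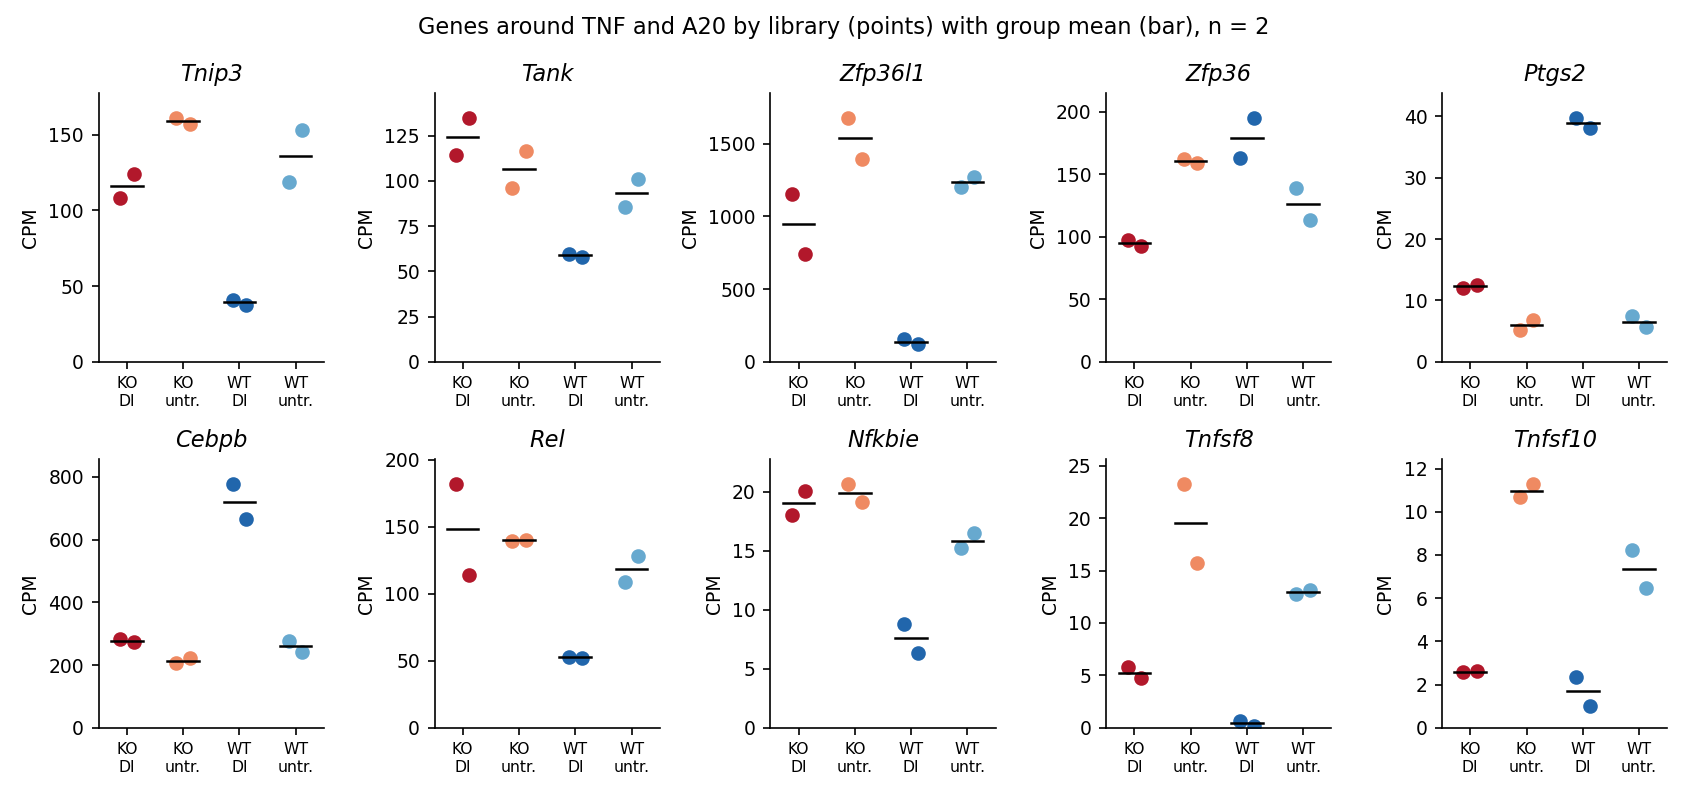
Levels in CPM (vertical axes, each from 0) in every library of 10 genes of the lists, with a bar at the mean of 2 libraries and groups from KO DI and KO untreated to WT DI and WT untreated. Tnip3, Zfp36l1, Rel and Nfkbie are lowest in the WT DI libraries, and Ptgs2 and Cebpb are highest there.

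Across the 8 libraries, which share groups and in which the WT DI pair stands apart, the levels of Tnfrsf1b and Tnfaip3 ran together (Pearson r = 0.897 on log2 CPM) and those of Tnfrsf1b and Birc2 ran opposite (r = -0.973). Over the 6 libraries without WT DI, r was 0.647 for Tnfrsf1b with Tnfaip3 and -0.639 for Tnfrsf1b with Birc2. Among 7357 genes with a mean of at least 10 CPM, the genes most like Tnfaip3 over the 8 libraries were Panx1, Pcbd2, Srprb, Pctp and Cnpy4, with r of 0.970 to 0.976 and of at least 0.950 with any 1 library left out. Panx1, a pannexin channel gene, rose by 3.77 with DI in WT cells (edgeR adjusted p = 5.89e-05) and differed by -0.95 in knockout cells (edgeR adjusted p = 0.266). The genes most like Tnf were Agps, Selenot, Rpl9, Acbd6 and Stx7, with r of 0.921 to 0.969, and r fell to 0.642 for Selenot without knockout DI replicate 2. These are correlations over 8 libraries chosen as the highest of 7357 and carry no test.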

How the data were processed

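RNA was sequenced from 8 macrophage libraries with reads towards 3′ ends. The deposited counts are raw whole numbers of reads per gene, and no molecular identifiers were counted. Per the submitters' processing notes, mm10, STAR, HTSeq and DESeq2 were used, with no versions or roles; the annotation release and strand setting are not given in the sources used here. Symbols and coordinates come from GENCODE, and 21822 of 22165 identifiers matched; rows without a symbol held 0.0606% of counts.

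Counts were tested with edgeR 4.0.16 (robust quasi-likelihood F-test, TMM scaling, one mean per group over all 8 libraries, low-count filter with a minimum of 10), leaving 11079 genes, with Benjamini-Hochberg adjustment over all of them. The standard error is the log2 change divided by the root of F. Alternatives were relative log expression or total-count scaling, DESeq2 1.42.0, no filter, only the libraries compared, a replicate block, removal of a trend with A-rich coding sequence (the highest number of A in 15 coding bases), and leaving out each library. The fit was run on simulated data with the same spread for every gene, which does not cover the spread between these libraries. Libraries of a group correlated at 0.973 to 0.980 and differed by a chi-square of 15.2 to 45.3 per degree of freedom, so spread between libraries exceeded counting error at depths of 5554288 to 15680671 counts.

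The 10 genes, the lists and the tests were chosen with earlier results of these data known. Up to 6 called genes per list and comparison were eligible to be named, and 5 genes most like Tnfaip3 and Tnf by Pearson r. Start-site windows came from RefSeq (GRCm38.p6), which held all 10 genes.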

Additional observations from a re-analysis of the deposited data

Results flagged for a closer look

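The change with DI differed between genotypes for Tnfrsf1b, by -2.471 (log2, change in knockout minus change in WT). It was -0.58 in knockout cells and 1.89 in WT cells, and the test of the difference itself passed (edgeR adjusted p = 0.00261).

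The change with DI also differed for Tnfaip3, by -2.31 (log2), with -0.69 in knockout cells and 1.62 in WT cells (edgeR adjusted p = 0.0155). This call was lost without knockout untreated replicate 2, WT untreated replicate 2 or WT DI replicate 1.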

How the results depend on the processing

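Across the settings other than leaving out a library, the 10 genes kept direction and call in 327 comparisons, lost a call in 4, gained one in 4 and changed sign in 5. The changes of sign were all of uncalled values: with total-count scaling Birc3 was -0.0672 with DI in WT cells and 0.0275 in knockout against WT under DI, and with the A-rich trend removed these were -0.10 and 0.13, and Traf2 was -0.0369 with DI in WT cells. The cause was not tested. Total counts moved the median of all genes by 0.106 in knockout against WT under DI. Traf1 in WT cells was not called with total counts (0.77, adjusted p = 0.0652) or with the A-rich trend removed (0.68, adjusted p = 0.116), nor under DI in a fit of the libraries compared (0.81, adjusted p = 0.0534).

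Without each library in turn, the 10 genes gave 0 to 1 calls with DI in knockout cells, 1 to 3 in WT cells, 1 to 2 in the difference between responses, 2 to 4 in knockout against WT under DI and 0 in untreated cells. All genes gave 104 to 1088, 804 to 1746, 238 to 933, 1208 to 2222 and 11 to 81 calls. Sign changes fell in these ranges, which were of uncalled values except at the upper end for Tnf under DI. Tnf ranged from -0.35 to 1.06 in knockout cells, -0.0034 to 0.50 in WT cells, -0.58 to 0.83 in the difference and -0.44 to 0.97 under DI. Birc3 ranged from -0.046 to 0.14 in WT cells and -0.23 to 0.0611 under DI. Tnfaip3 ranged from -1.13 to 0.0026 in knockout cells and -0.76 to 0.39 untreated. Tnfrsf1a ranged from -0.0202 to 0.30 in WT cells and -0.11 to 0.33 untreated, Tnfrsf1b from -0.17 to 0.0326 untreated and Tnip2 from -0.21 to 0.10 untreated. Tnip1 ranged from -0.32 to 0.33 in knockout cells, Traf1 from -0.16 to 0.60 in the difference, and Traf2 from -0.0276 to 0.28 in the difference and -0.0724 to 0.26 untreated.

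All genes gave 1697, 1597 and 397 calls with no filter in knockout cells, the difference and untreated cells, and 191 in untreated cells with DESeq2, against 940, 836, 67 and 67. The list settings were chosen after seeing the data. No share of all genes in the same fit stands beside the list counts that follow, so they cannot be read as high or low. Without the filter, every gene with a count was tested, which is more genes than in the main fit. The receptor list gave 2 in WT cells with the A-rich trend removed, 2 in knockout cells with total counts, DESeq2, no filter or the replicate block, 4 in the difference with total counts, DESeq2 or no filter, and 3 under DI with only the libraries compared. The Tnf transcript list gave 1 in knockout cells with total counts, DESeq2, no filter or only the libraries compared, and 1 in the difference with the A-rich trend removed. The NF-κB list gave 7 in knockout cells with DESeq2 or no filter and 1 untreated with no filter, and the superfamily list gave 5 in knockout cells and 6 in the difference with no filter. Without each library, in knockout cells, WT cells, the difference and under DI, the receptor list gave 0 to 2, 1 to 4, 0 to 2 and 3 to 5 calls, the Tnf transcript list 0 to 1, 1 to 2, 1 to 2 and 1 to 2, the NF-κB list 2 to 6, 4 to 12, 0 to 3 and 7 to 10, and the superfamily list 1 to 3, 3 to 5, 1 to 2 and 4 to 7.

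Deviations of same-numbered libraries correlated weakly, at -0.0234 to 0.156, which cannot show whether the replicate numbers pair the libraries. With the replicate block the 10 genes gave 1 call in knockout cells, 4 in WT cells, 2 in the difference and 4 under DI, the same counts as without it. Having 2 libraries per group limits every estimate.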
